A study of Capra hircus with 9 samples.

Results

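The genes described here are the spliceosomal and hnRNP genes of the goat mammary gland. They were chosen by gene symbol alone: serine/arginine-rich splicing factors (SRSF), heterogeneous nuclear ribonucleoproteins (HNRNP), the SF3A and SF3B subunits with U2AF1 and U2AF2, the Sm and snRNP proteins (SNRP and SNRNP), the pre-mRNA processing factors (PRPF) and the LSM proteins. This gave 85 members among the 23499 genes of the deposited table, with 11 SR, 20 hnRNP, 11 SF3/U2AF, 19 Sm/snRNP, 13 PRPF and 11 LSM genes. All 85 were detected in every library and entered the tests, which covered 14701 genes.

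RNA was sequenced from whole mammary tissue of Laoshan dairy goats of the third parity, with 1 library per goat and 3 goats per stage. The stages were late lactation (LL, 240 days postpartum), the dry period (DP, 300 days postpartum) and late gestation (LG, 140 days after mating). Goats carried no treatment or transgene, and every goat was sampled at 1 stage only, so each comparison is between different animals. The comparisons ask how splicing genes stood when milk secretion was ending, when the gland was dry, and when it was being rebuilt before kidding.

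Pre-mRNA splicing is carried out by the spliceosome, which is assembled from the U1, U2, U4, U5 and U6 small nuclear ribonucleoproteins (snRNPs). A ring of Sm proteins sits on most of the spliceosomal snRNAs and a ring of LSM proteins on U6, while SF3 and U2AF proteins recognise the branch point and the 3′ splice site, and PRPF proteins hold the U4/U6.U5 tri-snRNP and drive its rearrangement. SR proteins mostly favour inclusion of exons, and hnRNP proteins bind nascent RNA and often favour skipping. These genes are expressed in every cell type, and secretory epithelium depends on them as other tissues do.

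The unit of the deposited values is not stated in the table, and they were taken to be FPKM. A small number of genes took up much of each library: the 10 highest genes held between 80.6% and 86.0% of the summed FPKM in LL and between 53.6% and 58.5% in DP and LG. The members' sum was 855 to 1141 deposited FPKM in LL, then 2506 to 2628 in DP, then 2313 to 3100 in LG. Each library was therefore divided by a median-ratio factor, which was 0.498 to 0.605 in LL, then 1.44 to 1.53 in DP, then 1.2 to 1.31 in LG. Levels below are these scaled FPKM, and differences are on the log2(scaled FPKM + 1) scale, which understates the change of genes near or below 1. On the scaled level the members' sum was 1718 to 1884 in LL, then 1716 to 1823 in DP, then 1931 to 2359 in LG. A difference was called when limma's adjusted p was under 0.05 and its size was at least 1 on the log2 scale. There were 6 members with deposited values that followed those of a neighbouring gene: HNRNPR, SNRPA, U2AF2, LSM12, SNRPN and LSM1. Their values cannot be taken as measured apart from that neighbour.

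Cell type markers moved between the stages. Summed over 8 luminal epithelial markers, the level was 883 to 1150 in LL, then 313 to 567 in DP, then 830 to 958 in LG. Marker by marker, 6 of these 8 were below 0 and 2 above in DP against LL, with differences between -4.19 and 0.60. The sum of 8 leukocyte markers was 35 to 40.3 in LL, then 76.3 to 124 in DP, then 28.9 to 38.8 in LG, and that of 6 fibroblast markers was 212 to 324 in LL, then 502 to 2390 in DP, then 521 to 954 in LG. In LG against LL, 4 of the 6 fibroblast markers were above 0 and 2 below. Summed over 12 markers of dividing cells, the level was 21.5 to 26.4 in LL, then 25.5 to 28.3 in DP, then 52.0 to 86.5 in LG. None of these 34 markers was at 0 through all libraries of a stage. In whole tissue, fewer cells of a type and less RNA per cell cannot be told apart, and the part of these shifts in the results below was not tested.

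With the median-ratio scaling, most splicing genes did not pass the test between any 2 stages. Without scaling or with scaling by the sum, most passed in DP against LL. With an adjusted p under 0.05, 8 members stood higher in DP than in LL, where 28.2% of all genes tested did, and 11 stood lower, where 28.6% did. Together they made up 22.4% of the members beside 56.9% of all genes. This order depended on the scaling, since 51 of 85 members passed beside 56.8% of all genes with scaling by the sum, 95.3% beside 86.8% without scaling, and 41.2% beside 51.8% with quantile normalization. LG against LL gave 22 higher and 5 lower, where 25.6% and 24.6% of all genes were, or 31.8% beside 50.2% in either direction, and 96.5% beside 76.1% without scaling. LG against DP gave 16 higher and 1 lower, where 18.4% and 16.4% of all genes were, or 20.0% beside 34.8%. Differences were small. Between DP and LL, 81.2% of the members lay within 0.5 log2 units of 0, beside 48.7% of all genes. For LG against LL these shares were 78.8% and 54.0%, and for LG against DP 84.7% and 63.1%. Libraries of 2 stages did not overlap in 20 members higher and 18 lower in DP than in LL (32.5% and 33.4% of all genes), in 27 higher and 6 lower in LG than in LL (31.0% and 30.2%), and in 29 higher and 4 lower in LG than in DP (25.1% and 22.8%). Within a stage, the median coefficient of variation over the members was 10.2% in LL, 10.3% in DP and 15.2% in LG, beside 14.6%, 16.6% and 17.5% over all genes. No test was made of whether these shares differ.

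Few members passed the fold threshold as well. For DP against LL 1 member was called higher and 3 lower, where 13.8% and 8.79% of all genes were, or 22.6% in either direction. LG against LL had 2 higher and 1 lower, where 10.7% and 6.61% of all genes were, or 17.3% in either direction. LG against DP had 2 called higher, where 6.37% of all genes were, and limma called 0 lower, where 6.88% were, or 13.3% in either direction. Only 2 members were lower at an unadjusted p under 0.05. In all, 7 members were called in at least 1 comparison (PRPF40B, LSM11, HNRNPA2B1, SNRNP25, LSM12, LSM1 and LSM6). Of all genes tested, 25% of the 13314 before the last 1387 deposited rows were called in at least 1, and 98.7% of those 1387. By the adjusted p, 39 members passed in at least 1 comparison and 46 in none. The matching shares of all genes, and that at the unadjusted p, are not given here.

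**Figure D1:**
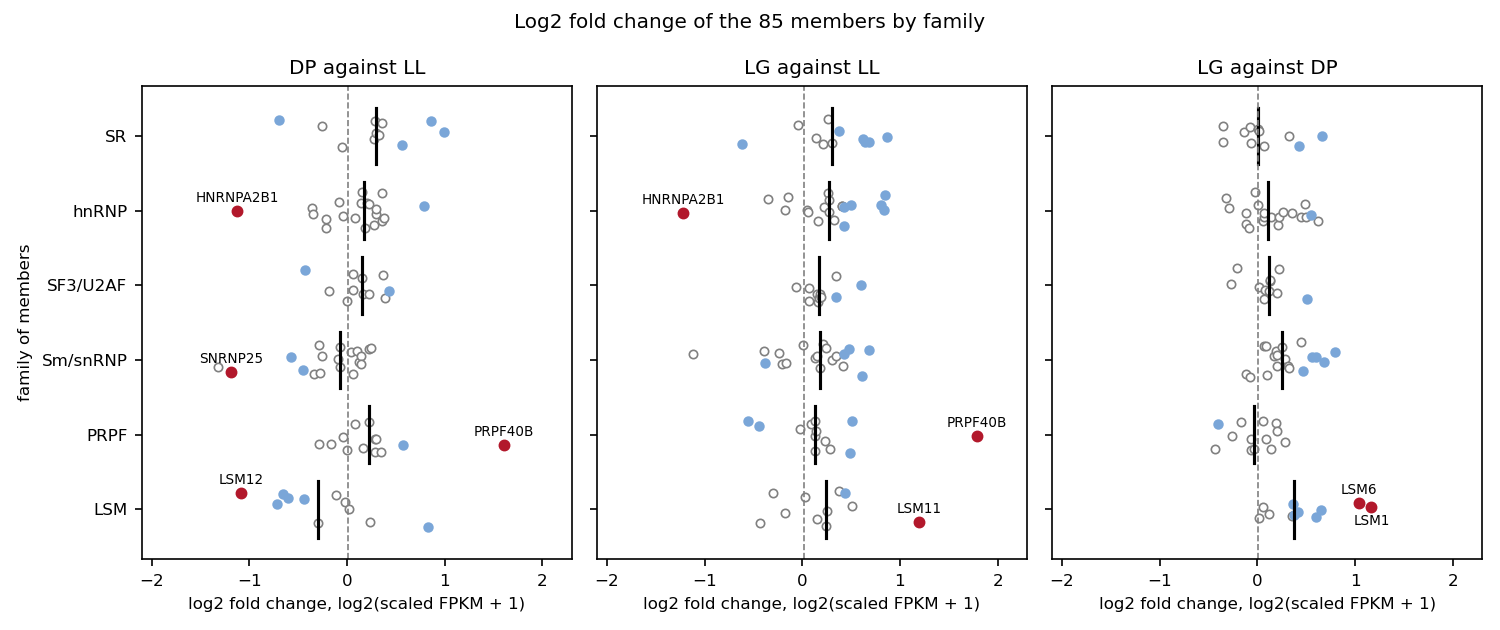
Log2 fold change (x axis, log2(scaled FPKM + 1)) of the 85 members by family (y axis) in the 3 comparisons; each point is 1 gene, white where the adjusted p was 0.05 or more, blue where it was under 0.05, and red with its name where the gene was called. Black bars are family medians and the dashed line is the median of all genes tested. In LG against DP all 11 LSM genes lie above 0, with LSM1 and LSM6 called; without scaling 10 of the 11 lie above the median of all genes.

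Between LL and DP the LSM genes had a median difference of -0.29, with 5 lower in DP and 1 higher by the adjusted p, or 54.5% of the 11 beside 56.9% of all genes. This median was -0.38 with quantile normalization but 0.82 without scaling and 0.07 when libraries were scaled by the sum of all but the 100 highest genes. Since these scalings shift all genes too, the LSM median was below that of all genes under each, by 0.27 to 0.40. In LG against DP all 11 LSM genes were above 0, the median was 0.38, and 7 were higher by the adjusted p, or 63.6% beside 18.4% of all genes. The median stayed above 0 under every scaling, between 0.20 and 0.33. LG against LL had a median of 0.24 and 2 genes higher, or 18.2% beside 25.6%.

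LSM6, a subunit of the ring on U6, lies on chromosome 17 from 58811755 to 58826423 (plus strand). Its scaled level was 14.4, 15.3 and 13.3 in LL, against 8.11, 8.88 and 10.4 in DP and 20.4, 18.7 and 20.0 in LG. The stages did not overlap, with DP lowest and LG highest. The difference was 1.04 ± 0.13 (SE) in LG against DP (adjusted p = 0.000377) and -0.60 in DP against LL (adjusted p = 0.00343). Leaving out DP replicate 1 put LG against DP at 0.96, quantile normalization put it at 0.95, and each of the other scalings put it at 0.83, all under the fold threshold.

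LSM1 replaces LSM8 in the cytoplasmic ring that binds mRNA ends during decay, and it lies on chromosome 27 from 12321507 to 12331238 (plus strand). Its level was 15.4, 13.2 and 12.8 in LL, against 8.19, 8.64 and 8.29 in DP and 13.8, 24.5 and 23.7 in LG. The 3 DP libraries lay close together below all others, while LG replicate 1 stood with LL. LG was higher than DP by 1.17 ± 0.20 (SE; adjusted p = 0.00207), and by 0.97 without scaling or with scaling by the sum, under the fold threshold. Its values differ from those of the neighbouring gene STAR only by fixed amounts.

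LSM12, a protein with an Lsm domain outside these rings, lies on chromosome 19 from 43524573 to 43544793 (minus strand). Its level was 11, 12.3 and 15.2 in LL, against 4.74, 5.50 and 6.23 in DP and 7.94, 7.56 and 12.8 in LG. DP lay below both other stages. The difference of -1.08 ± 0.20 (SE) in DP against LL passed (adjusted p = 0.00166), but became -0.99 without LL replicate 3 or without DP replicate 1, -0.69 with scaling by the sum and 0.17 without scaling, the last being -0.92 relative to all genes. It is tied by fixed amounts to TMEM101, its neighbour.

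Of the other subunits of the U6 ring, LSM3 fell in DP, from 25.7, 22.2 and 24.1 in LL to 14.3, 13.4 and 14.9, and stood at 20.7, 18.2 and 19.0 in LG. The difference in DP against LL was -0.72 ± 0.12 (SE; adjusted p = 0.00114). Without scaling it was 0.62, or -0.47 relative to the median of all genes. LSM4 and LSM8 were higher in LG than in DP by 0.60 (adjusted p = 0.0168) and 0.36 (adjusted p = 0.0434). LSM2, LSM5 and LSM7 passed in no comparison, and LSM5 was between 7.56 and 9.45 in all 9 libraries. Over the 7 genes of this ring, 4 were higher in LG than in DP at an adjusted p under 0.05, where 18.4% of all genes were, and the median difference was 0.36.

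The 2 LSM proteins of the U7 snRNP, which cuts the 3′ end of histone mRNAs, followed different patterns. LSM11, on chromosome 7 from 41216140 to 41228808 (minus strand), had levels of 0.623, 0.741 and 1.06 in LL, against 2.26, 2.41 and 1.90 in DP and 3.12, 2.84 and 3.45 in LG. The stages did not overlap and rose from LL through DP to LG. The mean level in LG was 3.89 times that in LL, with a log2 difference of 1.2 ± 0.13 (SE; adjusted p = 8.67e-05). The smaller differences of 0.82 in DP against LL (adjusted p = 0.000595) and 0.38 in LG against DP (adjusted p = 0.0467) did not reach the fold threshold. With quantile normalization LG against LL was 0.86. LSM10 was between 2.96 and 4.92 throughout and passed in no comparison.

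Genes of the Sm ring, the 7 proteins shared by the U1, U2, U4 and U5 snRNPs, were all above 0 in LG against DP, with a median of 0.45. This median was 0.23 without scaling, 0.29 with quantile normalization and 0.24 with scaling by the sum, and under each of these all 7 genes lay above the median of all genes. By the adjusted p, 3 of the 7 were higher, or 42.9% beside 18.4% of all genes, namely SNRPD2, SNRPD3 and SNRPG. SNRPD2 was 32.0, 31.8 and 33.5 in LL, against 31.2, 40.0 and 35.6 in DP and 50.3, 51.8 and 56.4 in LG. LG lay above all 6 other libraries, with a difference of 0.56 against DP (adjusted p = 0.0126) and 0.68 against LL (adjusted p = 0.00317). SNRPG was higher in LG than in DP by 0.60 (adjusted p = 0.0127) and SNRPD3 by 0.47 (adjusted p = 0.0481).

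SNRPF, another subunit of the Sm ring, was at 16.6 and 13.4 in LL replicates 1 and 2 but at 2.33 in LL replicate 3. The DP libraries were at 3.78, 2.32 and 2.42 and the LG libraries at 4.34, 2.17 and 3.90, so LL replicate 3 stood with these 6. Its differences of -1.32 ± 0.53 (SE) in DP against LL and -1.11 in LG against LL missed the threshold (adjusted p = 0.0571 and 0.107). Without LL replicate 3 they were -2.1 and -1.89 and were called. Its coefficient of variation in LL, 69.4%, was the largest of the members at that stage.

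**Figure D2:**
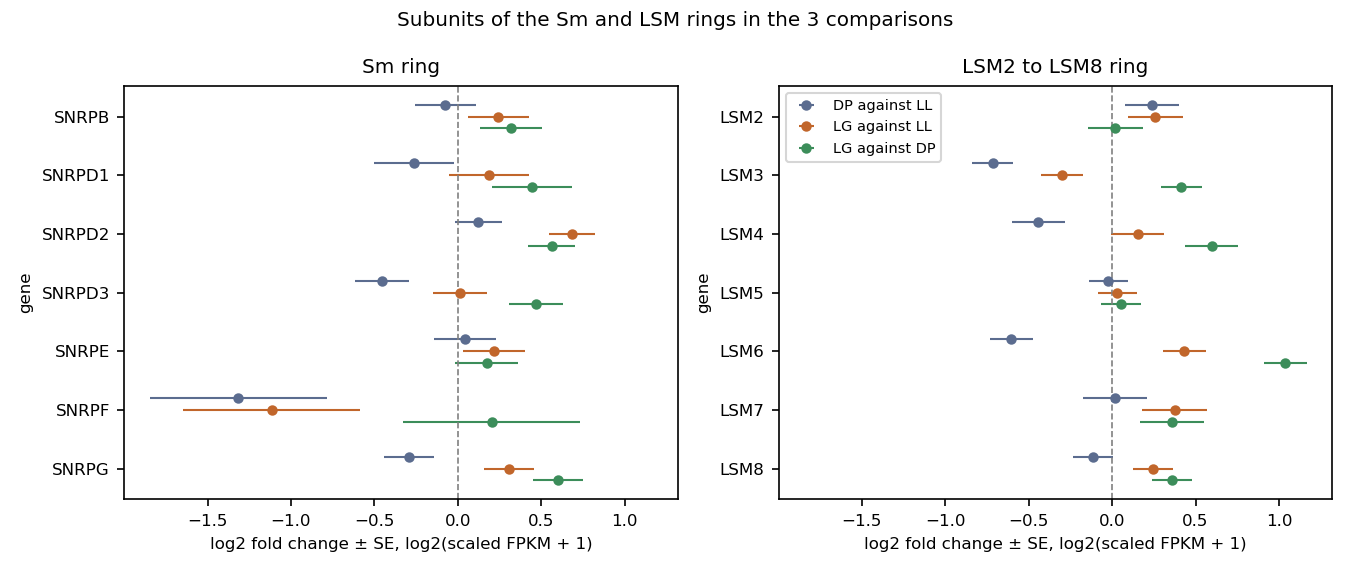
Log2 fold change ± SE (x axis, log2(scaled FPKM + 1), n = 3 per stage) of the 7 genes of the Sm ring and the 7 of the LSM2 to LSM8 ring, with 1 point per comparison. The green points, LG against DP, all lie at or above 0; the medians of 0.45 and 0.36 fell to 0.23 and 0.16 without scaling. SNRPF has by far the widest error.

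Over all 19 Sm and snRNP genes, 17 were above 0 in LG against DP, with a median of 0.25 that stayed positive under every scaling (0.04 to 0.19). By the adjusted p, 5 were higher, or 26.3% beside 18.4% of all genes. Against LL, 4 were higher in LG and 1 lower, or 26.3% beside 50.2%. For DP against LL 3 were lower, or 15.8% beside 28.6%. The median there was -0.08, and relative to all genes it was 0.12 without scaling, 0.09 with quantile normalization and -0.02 with scaling by the sum.

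Among proteins particular to 1 snRNP, SNRPC of the U1 particle was highest in LG. Its level was 10.8, 12.1 and 9.78 in LL, against 10.9, 9 and 11 in DP and 15.4, 15.8 and 20.5 in LG. LG lay above both other stages, by 0.68 ± 0.15 (SE) against DP (adjusted p = 0.00771) and 0.61 against LL (adjusted p = 0.00872). The 2 other U1 proteins passed in no comparison: SNRNP70 was between 25.9 and 41.9 and SNRPA between 6.29 and 12.3.

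Proteins of the U11/U12 particle, which serves the rare minor class of introns, were lower in DP than in LL in 2 of 3 cases by the adjusted p, where 28.6% of all genes were. SNRNP25, on chromosome 25 from 65004 to 67172 (plus strand), was at 23.0, 17.0 and 13.8 in LL, against 6.96, 7.26 and 7.16 in DP and 15.5, 12.4 and 11.7 in LG. DP was tightly grouped below all other libraries, while LL and LG overlapped. The difference in DP against LL was -1.19 ± 0.18 (SE; adjusted p = 0.000561), and -0.78 with scaling by the sum. Without scaling it was 0.11, where the median of all genes stood at 1.09, or -0.98 relative to it. LG was higher than DP by 0.79 (adjusted p = 0.00894). SNRNP35 was lower in DP than in LL by a difference of -0.58 (adjusted p = 0.00352) and in LG than in LL by -0.38 (adjusted p = 0.0266), whereas SNRNP48 was between 2.94 and 4.74 and passed in none.

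**Figure D3:**
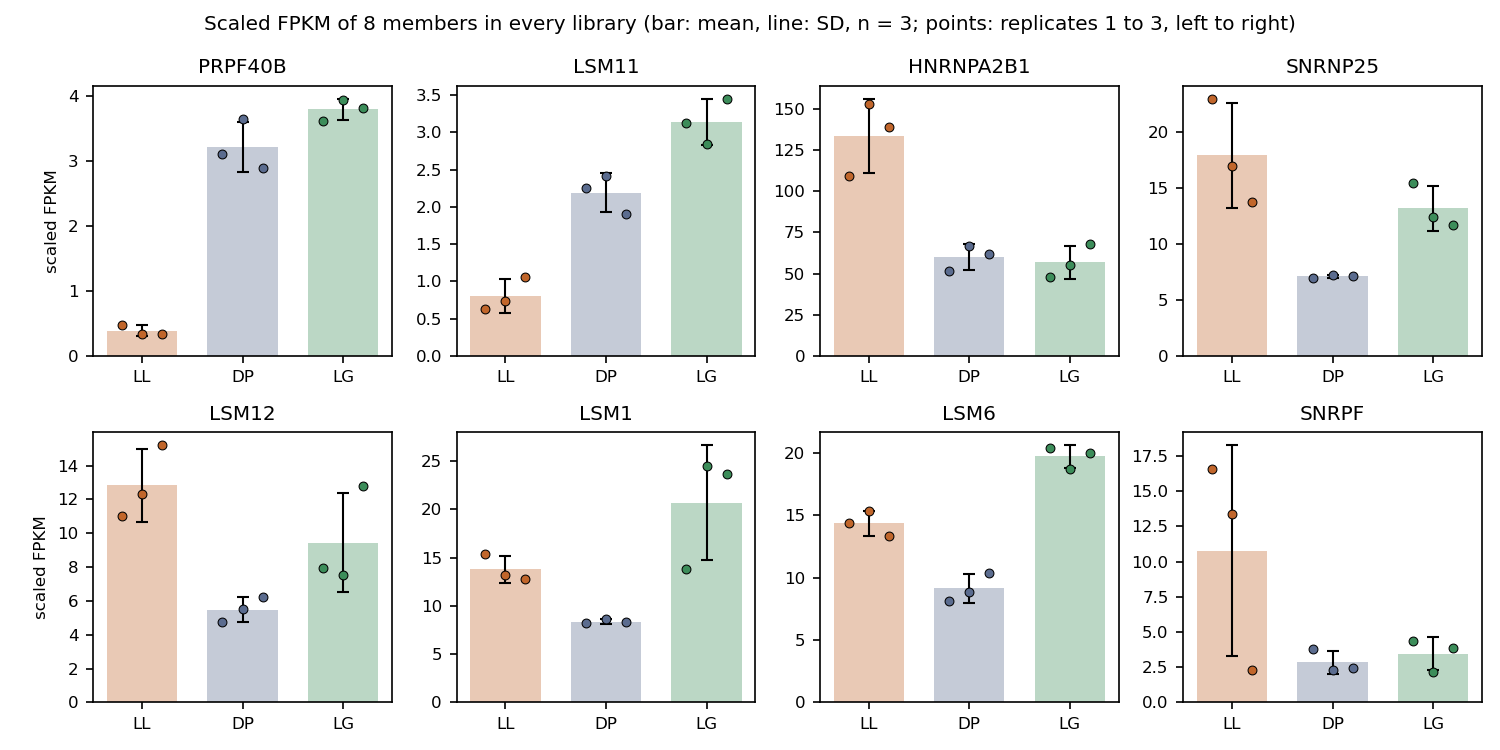
Scaled FPKM (y axis, starting at 0) of the 7 called members and SNRPF by stage; bars are means, lines SD (n = 3) and points the libraries in order of replicate number. PRPF40B and LSM11 are lowest in LL, HNRNPA2B1 is highest there, and LL replicate 3 of SNRPF, at 2.33, stands apart from the other LL libraries.

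Branch-point and 3′ splice-site factors varied little. In the SF3/U2AF family the differences were between -0.44 and 0.43 in DP against LL, with 1 member higher and 1 lower by the adjusted p. They were between -0.06 and 0.60 in LG against LL, with 2 higher, and between -0.27 and 0.51 in LG against DP, with 1 higher. In either direction these were 18.2%, 18.2% and 9.09% of the family, beside 56.9%, 50.2% and 34.8% of all genes. SF3B1, which contacts the branch point and had the highest level in this family, was at 39.7, 51.3 and 52.8 in LL, against 69.9, 64.1 and 52.8 in DP and 50.2, 53.3 and 57.6 in LG, and passed in no comparison. The small subunit SF3B5 had a different course, at 35.2, 32.5 and 32.3 in LL, against 23.7, 25.2 and 24.1 in DP and 36.3, 37.6 and 31.5 in LG. Its DP libraries lay below the 6 others, and both differences passed, at -0.44 against LL (adjusted p = 0.0172) and 0.51 for LG against DP (adjusted p = 0.0138). SF3A1 was higher in DP than in LL by 0.43 (adjusted p = 0.0297), and SF3B3 and SF3B2 were higher in LG than in LL by 0.60 and 0.35 (adjusted p = 0.0247 and 0.0308).

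The PRPF family held the largest change of the 85 members. PRPF40B, a relative of the yeast U1 snRNP protein Prp40, lies on chromosome 5 from 29856450 to 29876898 (minus strand). Its scaled level was 0.482, 0.343 and 0.330 in LL, against 3.11, 3.64 and 2.89 in DP and 3.62, 3.94 and 3.82 in LG. Deposited FPKM were between 0.19 and 0.24 in LL, between 4.16 and 5.25 in DP, and between 4.33 and 5.02 in LG. All 3 LL libraries were far below the other 6, and its mean level was 8.34 times higher in DP and 9.84 times higher in LG. The log2 differences were 1.60 ± 0.11 (SE; adjusted p = 5.81e-06) and 1.79 ± 0.11 (adjusted p = 4.54e-06), and LG and DP differed by 0.19 (adjusted p = 0.211). Both calls held under every alternative that was run.

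Of the other PRPF genes, PRPF8, which lies at the catalytic centre and had the highest level of the family, was between 14.3 and 19.0 in all 9 libraries and passed in no comparison. PRPF39, a U1-associated factor, was higher in DP than in LL by 0.57 (adjusted p = 0.0167), with levels of 8.14, 11.5 and 10.9 in LL and 16.2, 17.4 and 13.2 in DP, and it was at 10.2, 10.7 and 13.0 in LG. PRPF38A, which joins the spliceosome before catalysis, was the single member that passed the adjusted p as lower in LG than in DP. It was at 6.25, 6.13 and 6.16 in LL, against 5.87, 6.35 and 5.69 in DP and 3.77, 4.29 and 4.85 in LG, with differences of -0.40 against DP (adjusted p = 0.0214) and -0.44 against LL (adjusted p = 0.00911), the latter 0.53 without scaling, or -0.40 relative to all genes. PRPF18, a second-step factor, was lower in LG than in LL, with a difference of -0.55 (adjusted p = 0.0156) that was 0.48 without scaling, or -0.45 relative to all genes. PRPF6 and PRPF19 were higher in LG than in LL by 0.49 and 0.51 (adjusted p = 0.00612 and 0.0196).

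Of 11 SR protein genes, 3 were higher and 1 lower in DP than in LL, or 36.4% beside 56.9% of all genes, and 5 were higher and 1 lower in LG than in LL, or 54.5% beside 50.2%. The medians of 0.29 and 0.30 were above 0 under every scaling. Relative to the median of all genes they were 0.53 and 0.38 without scaling, and 0.59 and 0.33 with quantile normalization. LG and DP had a median difference of 0.01, which relative to the median of all genes was -0.04 without scaling, -0.26 with quantile normalization and -0.04 with scaling by the sum. There 2 genes were higher in LG, or 18.2% beside 18.4% of all genes.

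SRSF7, a shuttling SR protein with a zinc knuckle, was at 19.4, 21.0 and 22 in LL, against 37.6, 39.1 and 38.6 in DP and 32.0, 38.6 and 46.8 in LG. No LL library reached the lowest of the others. The differences from LL were 0.86 ± 0.16 (SE; adjusted p = 0.00155) in DP and 0.87 ± 0.16 (adjusted p = 0.00176) in LG, under the fold threshold here and over it with each of the other 3 scalings. In these comparisons the median of all genes itself stood at 1.09 and 0.93 without scaling. With scaling by the sum it stood at 0.36 and 0.19. SRSF3, the smallest SR protein, was higher than in LL by 0.56 in DP and 0.62 in LG (adjusted p = 0.0278 and 0.0194). SRSF1, the founding member of the family, was higher in LG than in LL by 0.69 (adjusted p = 0.00892).

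SRSF12 had the lowest mean level of all members, 1.23. It was at 0.623, 0.271 and 0.462 in LL, against 1.75, 1.18 and 2.95 in DP and 1.00, 1.16 and 1.66 in LG, so LL lay below both other stages while DP and LG overlapped. The difference in DP against LL was 0.99 ± 0.22 (SE; adjusted p = 0.00384). Leaving out LL replicate 1, LL replicate 3 or DP replicate 2 put it over the fold threshold, at 1.12, 1.02 and 1.16.

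SRSF6 and SRSF5 ran the other way. SRSF6 was at 57.3, 72.9 and 54.9 in LL, against 44.6, 31.9 and 36.5 in DP and 51.7, 53.7 and 75.7 in LG. DP lay below both other stages, with differences of -0.70 against LL (adjusted p = 0.0157) and 0.66 for LG against DP (adjusted p = 0.0319). SRSF5 was at 31.6, 44.0 and 40.2 in LL, against 28.0, 38.4 and 29.8 in DP and 22, 29.1 and 23.3 in LG, where it was lower than in LL by a difference of -0.61 (adjusted p = 0.0211), and 0.52 without scaling, or -0.41 relative to all genes. SRSF2, which together with SRSF6 was among the most abundant SR genes, was between 42.7 and 73.2 and passed in no comparison.

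The hnRNP genes were the most abundant family, with a median mean level of 33.5 and up to 187 for HNRNPA1. In LG against LL 6 of 20 were higher and 1 lower, or 35% beside 50.2% of all genes, with a median of 0.28 that was above 0 under every scaling. Relative to the median of all genes it was 0.40 without scaling and 0.35 with quantile normalization. The DP to LL comparison had 1 higher and 1 lower, or 10% beside 56.9% of all genes. LG against DP had 1 higher, or 5% beside 18.4%. There the median was 0.10, and relative to the median of all genes it was 0.06 without scaling, -0.16 with quantile normalization and 0.05 with scaling by the sum. HNRNPA1, which binds intronic silencers and telomeric RNA, was at 145, 173 and 194 in LL, against 169, 183 and 146 in DP and 237, 202 and 238 in LG. LG lay above the 6 others, but the differences of 0.41 against LL and 0.45 against DP missed the threshold (adjusted p = 0.0721 and 0.0698).

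HNRNPA2B1, a close relative of HNRNPA1 that binds and transports mRNA, was the single hnRNP gene called. It lies on chromosome 4 from 50469472 to 50479267 (minus strand). It is also among the last 1387 deposited rows, of which 98.7% were called in at least 1 comparison, beside 25% of tested genes before them. Its level was 109, 153 and 139 in LL, against 51.7, 66.9 and 62.1 in DP and 47.7, 55.2 and 67.7 in LG. All LL libraries were above the highest of the others. The differences from LL were -1.13 ± 0.19 (SE; adjusted p = 0.00109) in DP and -1.22 ± 0.19 (adjusted p = 0.00087) in LG. Their size depended on the scaling. Deposited FPKM were 54.0, 84.4 and 84.1 in LL, against 79.1, 96.4 and 89.4 in DP and 57.1, 68.1 and 88.9 in LG, and without scaling the differences were 0.27 and -0.05, where the median of all genes stood at 1.09 and 0.93. Relative to those medians HNRNPA2B1 was at -0.82 and -0.98. With quantile normalization they were -0.36 and -0.77, and with scaling by the sum -0.68 and -0.99, and they were not called.

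HNRNPM and HNRNPLL had the largest positive differences of the hnRNP genes in LG against LL. HNRNPM was at 22.2, 23.6 and 26.0 in LL, against 30.9, 32.1 and 29.9 in DP and 40.1, 36.6 and 57.5 in LG, with no overlap between any 2 stages. LG was higher than LL by 0.85 ± 0.18 (SE; adjusted p = 0.0035). HNRNPLL, a relative of HNRNPL studied as a regulator of T-cell splicing, was at 5.24, 7.88 and 5.68 in LL, against 8.71, 7.88 and 6.88 in DP and 12.7, 11.9 and 11.1 in LG. It was higher in LG by 0.84 against LL (adjusted p = 0.00195) and 0.55 against DP (adjusted p = 0.0223).

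HNRNPA0, an intronless relative of the A/B group, was the single hnRNP gene that passed the adjusted p as higher in DP than in LL. It rose from 2.95, 2.11 and 3.75 in LL to 5.38, 5.80 and 5.95 in DP, by 0.79 ± 0.17 (SE; adjusted p = 0.00346), and was at 3.62, 5.01 and 4.96 in LG. HNRNPA3 passed in no comparison, at 9.44, 8.26 and 12.6 in LL, against 8.01, 9.55 and 17.8 in DP and 5.93, 6.58 and 16.3 in LG. DP replicate 3 and LG replicate 3 were high against their own stage, and its coefficient of variation in LG, 60.6%, was the largest of the members there.

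LG replicate 3 stood apart in the members. It was the highest of the 3 LG libraries in 55 of 85 members, or 64.7%, where it was highest in 32.8% of all genes tested, and the highest of all 9 libraries in 38, or 44.7%, where 12.6% of all genes had their highest value in it. The median deviation of the members from their own mean was 0.26 in this library, beside 0.04 and 0.06 in the other LG libraries and between -0.09 and 0.01 in LL and DP. SR genes deviated most there, at 0.41, and SF3/U2AF genes least, at 0.19. Members summed to 2359 in it, beside 1931 and 1935. Summed over the 12 markers of dividing cells, the level was 86.5, 52.0 and 69.6 in LG replicates 1, 2 and 3, and 10 of the 12 had their highest LG value in replicate 1 and 2 in replicate 3. Their part in the members' levels was not tested.

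**Figure D4:**
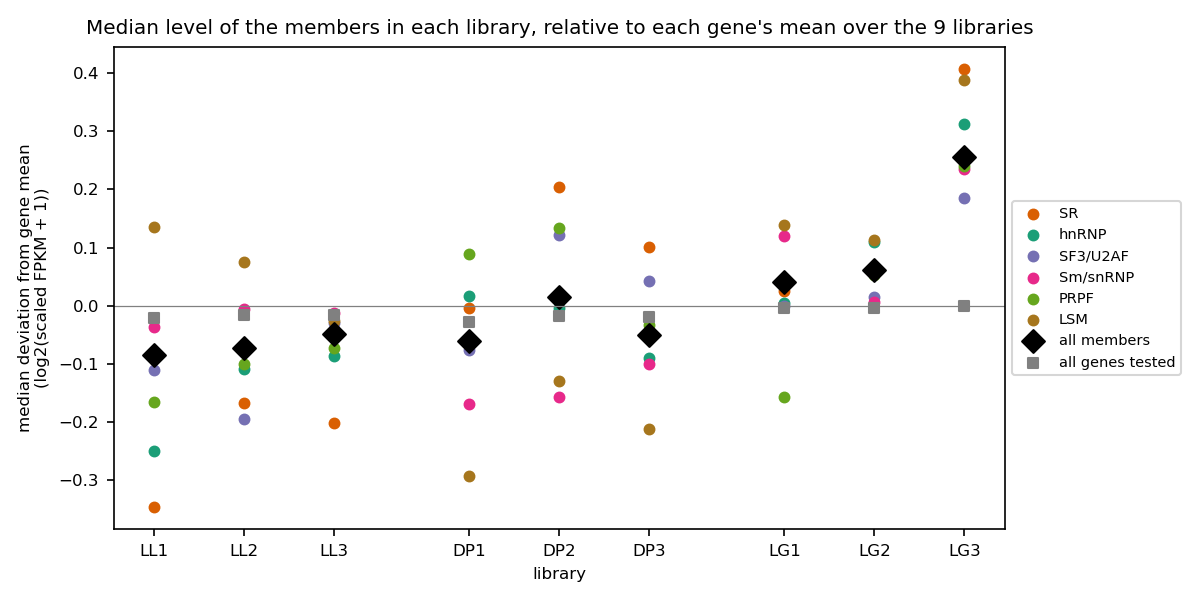
Median deviation of each family's genes from their mean over the 9 libraries (y axis, log2(scaled FPKM + 1)) in each library (x axis); diamonds are all 85 members and squares all genes tested. LG replicate 3 is the highest library for every family, with the members at 0.26 and all genes at 0.

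Counts also changed when single libraries were left out. Without LG replicate 3, the number of members higher in LG than in LL at an adjusted p under 0.05 went from 22 to 12, and the median from 0.22 to 0.12. Leaving out LL replicate 1, 2 or 3 also lowered that number, to 14, 12 and 13. All genes passing in either direction went from 7383 to 6592 without LG replicate 3. Without LL replicate 1, 2 or 3 they were 6362, 6097 and 6303. In LG against DP the 16 higher members became 9 without LG replicate 3, 10 without LG replicate 1, 9 without DP replicate 1 and 7 without DP replicate 2. In the same order, all genes passing there went from 5112 to 4216, 3952, 4493 and 3883. The 8 members higher in DP than in LL became 5 without DP replicate 2, while all genes passing went from 8359 to 7243. The calls of PRPF40B, LSM11, HNRNPA2B1, SNRNP25 and LSM1 held without any single library.

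Other splicing genes gave the surrounding pathway. Of 52 helicases and other spliceosome proteins, 10 were higher and 6 lower in DP than in LL by the adjusted p, 10 higher and 5 lower in LG than in LL, and 2 higher and 1 lower in LG than in DP. These were 30.8%, 28.8% and 5.77% of the list, beside 56.9%, 50.2% and 34.8% of all genes. Every difference in the list lay between -0.75 and 0.73. The exon junction complex, which marks spliced junctions, had 1 of 8 genes higher in DP and in LG than in LL, UPF3A, by 0.46 and 0.57 (adjusted p = 0.0253 and 0.0102). That was 12.5% of the complex, where 28.2% and 25.6% of all genes were higher.

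Of 9 genes listed as SR protein kinases and phosphatases, with the importin of SR proteins among them, 4 were higher and 1 lower in DP than in LL, or 55.6% beside 56.9% of all genes. The 4 higher genes were the kinases SRPK1, SRPK2, CLK1 and CLK2. SRPK1 was at 4.76, 4.81 and 4.24 in LL and 9.78, 9.11 and 7.59 in DP, a difference of 0.80 (adjusted p = 0.00269), and SRPK2 and CLK1 were higher by 0.65 and 0.70 (adjusted p = 0.00101 and 0.0144). The importin TNPO3, which carries phosphorylated SR proteins into the nucleus, was the lower one, at 17.1, 13.7 and 11.8 in LL and 7.75, 8.10 and 7.37 in DP (-0.79, adjusted p = 0.00151).

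The SMN and PRMT5 complexes load Sm proteins onto snRNAs. A list of 17 genes for snRNP assembly was taken, not all of them subunits of these complexes. Of these, 2 were higher and 5 lower in DP than in LL, 3 higher and 1 lower in LG than in LL, and 3 higher in LG than in DP. These were 41.2%, 23.5% and 17.6% of the list, beside 56.9%, 50.2% and 34.8% of all genes. GEMIN5, which recognises the snRNA, was the called one: it was at 0.522, 0.380 and 0.0826 in LL, 2.98, 3.21 and 3.38 in DP, and was higher than in LL by 1.67 in DP and 1.96 in LG (adjusted p = 9.18e-05 and 5.13e-05). PRMT5, which methylates Sm proteins, was higher in LG than in LL by 0.85 and than in DP by 0.68 (adjusted p = 0.00747 and 0.0298).

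Of 39 other RNA-binding regulators of splicing, 5 were called in at least 1 comparison. Called were 5.13% of the list for DP against LL, 5.13% for LG against LL and 7.69% for LG against DP, beside 22.6%, 17.3% and 13.3% of all genes. RBM47, an RNA-binding protein of epithelia, was at 32.2, 31.9 and 26.2 in LL, against 9.32, 7.49 and 6.5 in DP and 25.6, 22.9 and 30.1 in LG. Its DP libraries were far below the rest, with a difference of -1.83 against LL (adjusted p = 2.62e-05) and 1.64 for LG against DP (adjusted p = 0.00016). CELF2 had the opposite course, at 0.301, 0.398 and 0.892 in LL and 5.79, 5.86 and 5.38 in DP, higher by 2.14 (adjusted p = 6.6e-06), and its difference in LG against DP was -1.49. MBNL1 was lower in LG than in DP, with a difference of -1.18 (adjusted p = 0.0012), and MBNL3 and TARDBP were higher in LG than in LL by 1.48 and 1.05. The luminal and leukocyte marker sums given above moved as well between DP and either other stage, and their part was not tested. Between LL and LG, where MBNL3 and TARDBP were called, the ranges of both sums overlapped, but those of other marker sums did not. The fibroblast sum was 212 to 324 in LL and 521 to 954 in LG. For dividing cells it was 21.5 to 26.4 and 52.0 to 86.5, and for endothelial markers 93.2 to 125 and 58.1 to 79.9. The part of these sums was not tested either.

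As a comparison with other housekeeping machinery, proteasome subunits and translation initiation factors were taken by symbol. In LG against DP 12 of 37 proteasome genes were higher, with a median of 0.32, and 15 of 50 initiation factors were higher and 3 lower, with a median of 0.25. These were 32.4% and 36.0% of the lists, beside 34.8% of all genes in either direction, with 18.4% higher and 16.4% lower. The members' median was 0.13. Relative to the median of all genes it was 0.09 without scaling, -0.06 with quantile normalization and 0.09 with scaling by the sum, where the proteasome list was at 0.27, 0.08 and 0.27 and the initiation factors were at 0.22, 0.08 and 0.21. For DP against LL these lists had medians of -0.30 and -0.35, with 11 of 37 and 20 of 50 lower, where 28.6% of all genes were. Relative to all genes these medians were -0.05 and -0.13 without scaling and -0.25 and -0.29 with scaling by the sum, but not below all genes with quantile normalization. The members' median there was 0.08 and stayed above that of all genes under every scaling. The proteasome list includes PSMB8, PSMB9 and PSMB10, the interferon-inducible subunits, which were its called genes. PSMB10 was higher in LG than in LL by 2.46.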

How the data were processed

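Libraries were prepared from mammary RNA with a TruSeq RNA kit and sequenced on an Illumina instrument. Per the labels, the authors used FastQC, Trimmomatic, HISAT2, SAMtools and HTSeq; the study's methods name StringTie. The authors deposited 1 table of 23499 genes, whose unit is not named and was read as FPKM; counts were not used here, so depth is unknown. Coordinates are as deposited and equal those of RefSeq assembly ARS1.2 for all 85 members.

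Libraries were scaled by the median ratio over 15905 genes above 0 throughout. Genes with at least 0.5 FPKM in 3 libraries were tested on log2(scaled FPKM + 1) with limma 3.58.1 (R 4.3.3; trend, all 9 libraries, Benjamini-Hochberg over 14701 genes). The code was tested on simulated data. Named were the called members, the 5 highest and 5 lowest differences per comparison and the highest gene per family; others were named after their values were seen. P-values measure the spread between goats. Members and lists were chosen with earlier results of these data known, and the grouping into complexes after values were seen. Neighbouring genes were compared in 1001 pairs for linked values, within 1% of the range, as a straight line or as a line plus an amount fixed per library. Tools also included Python 3.11.15 with pandas 2.3.3. Alternatives were 3 other scalings, a pseudocount of 0.1, filters at 2 FPKM or none, no trend, fits of 2 stages, a replicate block, linked members left out, and each library left out.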

Additional observations from a re-analysis of the deposited data

How the results depend on the processing

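The counts depended mainly on the scaling. Without scaling, the median of all genes moved to 1.09 for DP against LL, 0.93 for LG against LL and -0.18 for LG against DP, and with scaling by the sum it was 0.36, 0.19 and -0.17. Without scaling, DP against LL had 69 members called higher and 0 lower, 81 and 0 at an adjusted p under 0.05 and a median of 1.34; LG against LL had 69 and 0, 82 and 0, and 1.24; LG against DP had 0 called higher, 3 higher and 4 lower at the adjusted p, and a median of -0.091. With quantile normalization, DP against LL had 4 called higher, 29 and 6 at the adjusted p and a median of 0.28, LG against LL 4 and 0 called, and LG against DP 1 called higher, 8 and 2 at the adjusted p and a median of -0.033. With scaling by the sum, DP against LL had 5 and 0 called, 48 and 3 at the adjusted p and 0.50; LG against LL 6 and 0, 37 and 1, and 0.42; LG against DP 0 called higher, 4 and 3 at the adjusted p and -0.081. Of all 14701 genes, 8348, 7043 and 2292 were called without scaling in DP against LL, LG against LL and LG against DP. In the same order, 2868, 2156 and 1842 were called with quantile normalization, and 3894, 2656 and 2109 with scaling by the sum. At the adjusted p, 86.8%, 76.1% and 37.7% of all genes passed without scaling. These shares were 51.8%, 43.3% and 32.1% with quantile normalization, and 56.8%, 49.4% and 37.2% with scaling by the sum. Relative to all genes, the members' median in LG against DP was 0.12 as reported, and 0.09, -0.06 and 0.09 under these scalings. With a pseudocount of 0.1, 3 members were called higher in DP than in LL, where 4483 of 14701 genes were called in either direction. Fitting only LG and DP gave 10 members higher and 0 lower, where 4341 of 14701 genes passed the adjusted p. Leaving out linked members, chosen after seeing the data, left 1 called higher in LG against DP.

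Leaving out each of the 9 libraries in turn gave 1 to 2 called higher and 2 to 3 lower, 5 to 12 higher and 8 to 12 lower at the adjusted p, and a median of 0.06 to 0.15 in DP against LL. For LG and LL it gave 1 to 2 called lower, 12 to 22 higher, 3 to 5 lower and 0.12 to 0.26. For LG and DP it gave 1 to 2 called higher, 7 to 15 higher, 0 to 2 lower and 0.09 to 0.18. Over all genes, 14401 to 14647 were tested in these fits. In DP against LL 3075 to 3422 of them were called and 6649 to 8570 passed the adjusted p. The ranges were 2400 to 2576 and 6097 to 7641 for LG against LL, and 1738 to 2004 and 3883 to 4892 for LG against DP.

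For named members, 492 of 540 alternatives kept direction and call, 16 lost a call, 25 gained one and 7 reversed. The reversals came without scaling: in DP against LL HNRNPA2B1 (0.27), LSM12 (0.17), LSM3 (0.62) and SNRNP25 (0.11), and in LG against LL PRPF18 (0.48), PRPF38A (0.53) and SRSF5 (0.52). Relative to the shifted median of all genes none of these reversed: HNRNPA2B1 was at -0.82, LSM12 at -0.92, LSM3 at -0.47, SNRNP25 at -0.98, PRPF18 at -0.45, PRPF38A at -0.40 and SRSF5 at -0.41. Equal replicate numbers did not pair the goats: correlations of same-numbered deviations were between -0.11 and 0.20. With a replicate block SNRPF in DP against LL passed (-1.32, adjusted p = 0.0382), and no count of members moved by over 1.5 times. The depth behind the FPKM is unknown, so low levels such as those of PRPF40B and SRSF12 in LL carry no counting interval.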

Other observations

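HNRNPA2B1 was the only one of the 85 members in the last 1387 rows of the deposited table. These rows follow the last gene listed at 0 in every library and are in alphabetical order in 99.6% of neighbouring pairs. Of their 1387 tested genes 98.7% were called in at least 1 comparison, beside 25% of the 13314 tested genes before them. All 1387 were counted in the shares of all genes given above. The median scaled log2 difference of DP against LL in them was -1.11, beside 0.02 in the earlier rows with a mean of at least 2 FPKM. How these rows were chosen is not given in the sources used here.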
